A study of Mus musculus with 22 samples.

Results

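To describe what loss of Nfkbie changes in the leukemia cells themselves, cultures of the murine line TCL1-355 TKO with the edited gene (NFKBIE-ko) or without (NFKBIE-wt) were compared. The comparison rests on 6 of the 22 RNA-seq libraries of the series, 3 labelled NFKBIE-ko and 3 labelled NFKBIE-wt, chosen by their titles. The line comes from the Eμ-TCL1 model of CLL, in which the TCL1 oncogene is driven in B cells, and its B-cell receptor binds phosphatidylcholine. All 6 cultures therefore share the TCL1 transgene and biallelic lesions that include Cdkn2a and Cdkn2b. NFKBIE-ko cells had been electroporated with a Cas9 ribonucleoprotein aimed at Nfkbie, and NFKBIE-wt cells are the mock-edited control. The study describes cells obtained from 3 mice by way of the spleen and then grown apart, unstimulated, for 2 weeks before RNA isolation, without saying which mouse gave which culture. For the tumors in vivo the genotypes had been propagated in separate mice, so that genotype and propagation cannot be told apart there, and the sources used here do not say whether the 3 cultures of a genotype derive from separately edited cells. The other 16 libraries, 4 per genotype from the spleen and 4 from the peritoneal cavity (PC) of young adult C57BL/6 mice, come from tumors that were not purified and are used only for values side by side.

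NF-κB transcription factors are held in the cytoplasm by the IκB proteins. IκBε, the product of Nfkbie, is one of these inhibitors, binds mainly dimers that contain RelA or c-Rel and is itself induced by NF-κB, so that it closes a negative feedback loop. In B cells the pathway is activated by antigen, CD40 ligand and Toll-like receptor ligands, and it drives genes of survival, of cytokines such as TNF and lymphotoxin, and of contact with T cells. Frameshift mutations of NFKBIE recur in CLL.

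The targeting sequence carries the experiment and is shown with the adjacent NGG motif of the genome in capitals.
Nfkbie cr-RNA: agtgattcacgaagccccgtCGG
The 20 bases of the cr-RNA lie at chr17:45869436-45869455 on the forward strand of GRCm39, within the coding sequence of exon 2 of the 6 exons of ENSMUST00000024742, and have 1 exact match next to such a motif in the genome. As small insertions and deletions at this site need not remove the transcript, the RNA level of Nfkbie is only a partial check of the labels.

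Reads had been quantified per transcript by the authors as estimated counts, which were rounded and summed per gene. Levels are given as CPM, the count scaled by library size and by TMM over the 22 libraries, and are compared between libraries only, never between genes. Total estimated counts of the cultures ranged from 24041882 to 26581304. The 3 NFKBIE-ko cultures resembled each other far more than the 3 NFKBIE-wt cultures did, with chi-square statistics divided by their degrees of freedom of 6.85 to 13.5 for their pairs against 93.1 to 175, and all were counted as separate samples. By Spearman correlation over 11550 genes, NFKBIE-wt 2 was closer to the NFKBIE-ko cultures (0.9891 to 0.9917) than to the other NFKBIE-wt cultures (0.9322 to 0.9685). NFKBIE-wt 1 was closer to NFKBIE-ko as well (0.9716 to 0.9775 against 0.9456 to 0.9685). The NFKBIE-wt cultures were thus no uniform control group, with or without NFKBIE-wt 3.

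A pair of libraries went against their labels. The library labelled NFKBIE-wt in vitro 3 had a summed level of 9 erythroid markers of 1441 CPM and of 10 granulocyte markers of 207 CPM, whereas the other 5 cultures had at most 25.5 CPM and 3.7 CPM. The library labelled NFKBIE-wt spleen 4 had 6.88 CPM and 0.155 CPM of the same lists, whereas the NFKBIE-wt spleens 1 to 3 had at least 284 CPM and 63.4 CPM. Each of the pair thus had the host markers of the other's label. Neither was reassigned. Results are given with all 6 cultures and without NFKBIE-wt 3 unless stated otherwise, and spleen values leave out NFKBIE-wt spleen 4.

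In the remaining cultures the B-cell markers summed to 14700 to 16100 CPM, and markers of host cells were low in the NFKBIE-ko cultures and NFKBIE-wt 2. In the NFKBIE-ko cultures the T-cell receptor genes Trbc1 and Trbc2 and the T-cell genes Cd8a, Cd8b1, Cd28 and Icos were at 0 counts, as they were in NFKBIE-wt 2. The summed T-cell list was still 361 to 422 CPM there, most of it from Tcf7, Lck, Cd2 and Cd3g, which were present in all 6 cultures. The cytotoxic and NK list summed to 2.81 to 3.86 CPM in NFKBIE-ko and to 1.96 CPM in NFKBIE-wt 2, and the myeloid list to 41.8 to 50.7 CPM and 39.2 CPM. NFKBIE-wt 1 had 18.5 CPM of the cytotoxic and NK list and 76.2 CPM of the myeloid list, within the 14.7 to 18.8 CPM and 75.0 to 103 CPM of the NFKBIE-wt spleens 1 to 3, with none of the T-cell or cytotoxic markers at 0. It also had the highest level of the plasma cell list, 2012 CPM against 911 to 1219 CPM in the other 5 cultures. Its T-cell list (212 CPM) and its erythroid list (12.1 CPM) were in contrast the lowest of the 6 cultures. The stromal and endothelial list ranged only from 49.7 to 66.6 CPM over the 6 cultures. RNA of the cytotoxic and NK, myeloid and granulocyte lists was thus highest in NFKBIE-wt 1 and 3. The part of such host RNA in genes that were lower in NFKBIE-ko was not tested gene by gene. Fewer cells of a type and less RNA per cell cannot be told apart.

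**Figure D1:**
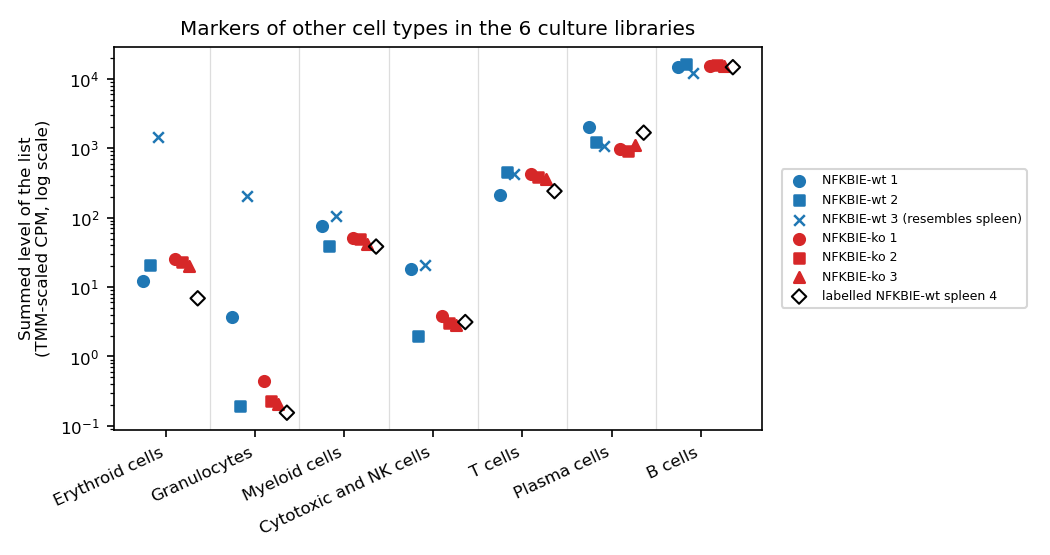
Summed level of marker lists (TMM-scaled CPM, log axis) in each of the 6 cultures, with the library labelled NFKBIE-wt spleen 4 as open diamonds. NFKBIE-wt 3 (crosses) stands far above the other cultures for erythroid cells (1441 CPM) and granulocytes (207 CPM), whereas the B-cell list differs little.

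The targeted gene was lower in most but not all comparisons. Nfkbie measured 117 CPM, 141 CPM and 54.3 CPM in NFKBIE-wt 1, 2 and 3, and 55.9 CPM, 59.9 CPM and 48.2 CPM in NFKBIE-ko. The NFKBIE-ko cultures lay below NFKBIE-wt 1 and 2 but overlapped with NFKBIE-wt 3. The log2 fold change was -0.93 (standard error 0.33, adjusted p of 0.516; every adjusted p below is a Benjamini-Hochberg value of the quasi-likelihood test in edgeR) with 6 cultures and -1.23 (standard error 0.13, adjusted p of 0.0902) without NFKBIE-wt 3. In a fit of 20 libraries without both of the conflicting ones, the effect in culture passed the test (-1.23, adjusted p of 0.0132). The gene fell in the PC as well (-0.56, adjusted p of 0.00375), but in the spleen it was 54.2 to 120 CPM in NFKBIE-ko against 70.9 to 76.8 CPM in NFKBIE-wt 1 to 3 (0.43, adjusted p of 0.294). The effect in culture minus that in spleen was -1.67 in the fit of 20 libraries (adjusted p of 0.0142).

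A gene was called when its adjusted p was below 0.05 and its log2 fold change beyond 1. With 6 cultures this held for 5 of 11722 genes (0.0427%), all higher in NFKBIE-ko (and 0% lower), and without NFKBIE-wt 3 for 9 of 11844 genes, 7 higher (0.0591%) and 2 lower (0.0169%). The 5 genes of the first fit were among the 7 of the second. The calls depended on single libraries, as none remained without NFKBIE-wt 1 or without any 1 NFKBIE-ko culture, whereas 167 genes were called higher and 223 lower without NFKBIE-wt 2. The called genes encode a T-cell coreceptor (Cd4), a costimulatory ligand (Icosl), a regulator of tissue antigens (Aire), an adhesion molecule (Cdh17), a motor protein (Myo3b), a sulfotransferase (Sult5a1) and a GTPase of lymphocytes (Gimap7) on the higher side, and an RNA-binding zinc finger protein (Zc3h12d) on the lower side.

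Cd4, the coreceptor with which helper T cells bind MHC class II, measured 11.8 CPM, 8.18 CPM and 5.17 CPM in NFKBIE-wt and 110 CPM, 80.9 CPM and 104 CPM in NFKBIE-ko. All NFKBIE-ko cultures were thus several times above all NFKBIE-wt cultures, with a mean of 98.2 ± 15.4 CPM (SD, n = 3) where NFKBIE-wt had 8.39 ± 3.33 CPM (SD, n = 3). The NFKBIE-ko cultures had no detectable RNA of the T-cell receptor β chain, Cd8a or Cd28, although Tcf7, Lck, Cd2 and Cd3g were present there. The log2 fold change of Cd4 was 3.55 (adjusted p of 0.0499), and 3.30 without NFKBIE-wt 3 (adjusted p of 0.0289). It was also higher in NFKBIE-ko in the spleen (4.6, adjusted p of 9.66e-05) and the PC (3.6, adjusted p of 3.22e-07), where T cells are present.

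Aire, which directs ectopic transcription of tissue antigens in the thymus, and Icosl, the ligand of the T-cell costimulator ICOS, rose together. Aire measured 3.1 CPM, 3.3 CPM and 1.8 CPM in NFKBIE-wt and 28.3 CPM, 25.5 CPM and 29.5 CPM in NFKBIE-ko (a log2 difference of 3.34 with an adjusted p of 0.0268; 3.12 and adjusted p of 0.00518 without NFKBIE-wt 3). Icosl measured 25.8 CPM, 22.7 CPM and 21.3 CPM against 82.4 CPM, 73.6 CPM and 81.7 CPM (1.76, adjusted p of 0.0167; 1.71 and 0.0223). For both genes the libraries of a genotype lay close together, NFKBIE-wt 3 included. The 2 genes are neighbors on chromosome 10 of GRCm39, where Aire ends at 77879444 and Icosl starts at 77905136. Both were also called in the PC and in the spleen, with log2 fold changes of 2.77 and 2.79 for Aire and 1.42 and 1.46 for Icosl.

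Cdh17, an intestinal cadherin, measured 3.02 CPM, 2.61 CPM and 3.11 CPM in NFKBIE-wt and 19.2 CPM, 21.6 CPM and 16.1 CPM in NFKBIE-ko (a log2 difference of 2.70 with an adjusted p of 0.0195). Myo3b, an unconventional myosin, measured 5.15 CPM, 4.84 CPM and 3.3 CPM against 25.8 CPM, 22.4 CPM and 21.2 CPM (2.38, adjusted p of 0.0428). Both stayed past the threshold without NFKBIE-wt 3, with log2 fold changes of 2.76 and 2.22. Sult5a1, of the cytosolic sulfotransferases, and Gimap7 passed it in the same test once that library was left out, with log2 fold changes of 2.31 (adjusted p of 0.00319) and 1.07 (adjusted p of 0.0289). Sult5a1 measured 15.4 CPM, 15.2 CPM and 26.8 CPM against 77.1 CPM, 72.5 CPM and 76.6 CPM, and Gimap7 20 CPM, 19 CPM and 6.7 CPM against 40 CPM, 42.5 CPM and 39.9 CPM. No NFKBIE-wt culture reached any NFKBIE-ko culture for either gene.

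On the lower side, Zc3h12d measured 48.1 CPM, 48.3 CPM and 64.8 CPM in NFKBIE-wt and 20.4 CPM, 22.7 CPM and 22 CPM in NFKBIE-ko. Its log2 fold change was -1.32 (adjusted p of 0.170) and passed the threshold without NFKBIE-wt 3 (-1.15, adjusted p of 0.0289). The groups did not overlap. The other lower call was the processed pseudogene Rps13-ps2, at 21.8 CPM and 20.2 CPM in NFKBIE-wt 1 and 2 and at 0 in the other 4 cultures, at least 179-fold lower against a floor of 3 counts per library. Its reads are shared with the parent gene of a ribosomal protein, so that this value is uncertain.

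**Figure D2:**
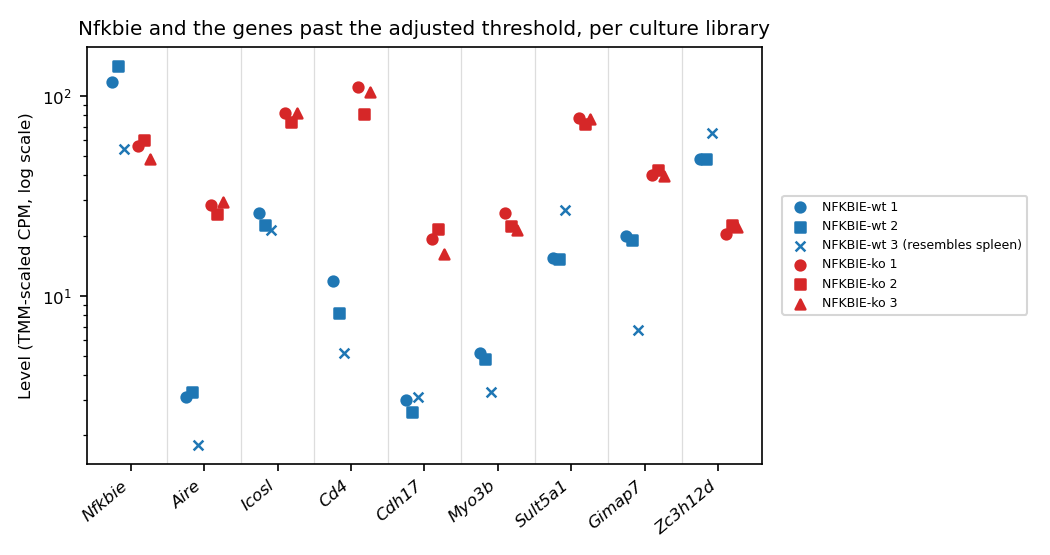
Level of Nfkbie and of the protein-coding genes past the adjusted threshold (TMM-scaled CPM, log axis) in each culture. The 3 NFKBIE-ko cultures lie close together and apart from the 3 NFKBIE-wt cultures for every gene except Nfkbie, where NFKBIE-wt 3 (54.3 CPM) falls among them.

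Full separation of the groups was used beside the adjusted threshold. All NFKBIE-ko cultures lay above all NFKBIE-wt cultures with a log2 fold change above 1 for 259 genes (2.21% of those tested), and below with a log2 fold change under -1 for 186 genes (1.59%). Without NFKBIE-wt 3 the numbers were 252 (2.13%) and 152 (1.28%). Of the 259 higher genes, 182 (70.3%) were among the 252, and of the 186 lower genes, 100 (53.8%) were among the 152, so that the lower side depended more on the conflicting library. By the unadjusted p under 0.05, again beyond that fold, 164 genes were higher (1.4%) and 241 lower (2.06%) with 6 cultures, and 177 (1.49%) and 133 (1.12%) without NFKBIE-wt 3. The genes lay on all autosomes and the X chromosome. Chromosome 17, with the edited locus, held 17 of the higher and 11 of the lower genes among 616 tested (2.76% and 1.79%), and without NFKBIE-wt 3 it held 12 and 11 among 624 (1.92% and 1.76%), on either side of the shares over all genes.

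Among the 15 protein-coding genes with the largest higher fold changes, all 15 also kept their fold and an unadjusted p under 0.05 once NFKBIE-wt 3 was left out. Besides Cd4, Aire, Cdh17 and Myo3b they included Hgfac, Tmed6, Rab20, Cdcp1, Dnai2, Pla2g2d, Asb2, Il11ra1, Tmem176a and Tmem176b. Hgfac, a protease made mainly in the liver, activates hepatocyte growth factor. Hgfac measured 0.563 CPM, 0.0768 CPM and 0.187 CPM in NFKBIE-wt and 8.22 CPM, 6.24 CPM and 5.74 CPM in NFKBIE-ko (log2 fold change 4.6, and 4.4 without NFKBIE-wt 3). It was under 1 CPM in every NFKBIE-wt culture and above 5 CPM in every NFKBIE-ko culture.

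Other genes of this group act in membranes and signaling. Tmed6, a protein of vesicle transport, had log2 fold changes of 3.53 and 4.74 with and without NFKBIE-wt 3, Rab20, a small GTPase of endosomes, 3.53 and 3.12, and Cdcp1, a surface substrate of Src kinases, 2.84 and 2.30. Il11ra1, the receptor of interleukin 11, measured 2.57 CPM, 3.22 CPM and 0.786 CPM in NFKBIE-wt and 10.3 CPM, 12.7 CPM and 10.4 CPM in NFKBIE-ko (2.34 and 1.94). Asb2, a subunit of a ubiquitin ligase, had 2.45 and 2.42, and Dnai2, a dynein chain of cilia, 2.61 and 2.18. Pla2g2d, a secreted phospholipase of lymphoid tissue, varied more among the NFKBIE-ko cultures than the others, at 17.1 CPM, 8.66 CPM and 22.7 CPM against 4.91 CPM, 2.8 CPM and 0.487 CPM. The adjacent genes Tmem176a and Tmem176b had 2.24 and 2.23, and 2.02 and 2.09 without NFKBIE-wt 3. Their annotated bodies overlap on opposite strands, so that their reads may not be fully separate.

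Of the 15 lower genes with the largest fold changes, 10 stayed beyond the fold without NFKBIE-wt 3 and 9 of these had an unadjusted p below 0.05. The ones that stayed were Tmprss3, Me3, Klhl13, Gpc6, Prss23, Sgk1, Epcam, Il2ra, Ap2a1 and, with an unadjusted p of 0.0535, Atf3. Prss23, a secreted serine protease, measured 30.3 CPM, 13.1 CPM and 162 CPM in NFKBIE-wt and 1.2 CPM, 0.963 CPM and 1.98 CPM in NFKBIE-ko, with log2 fold changes of -5.66 and -3.97 with and without NFKBIE-wt 3. Klhl13, an adaptor of a ubiquitin ligase, measured 2.57 CPM, 9.48 CPM and 3.86 CPM against 0.075 CPM, 0.0385 CPM and 0.124 CPM, at least 45.2-fold below the NFKBIE-wt mean (51.4-fold without NFKBIE-wt 3). In both genes the lowest NFKBIE-wt culture was well above the highest NFKBIE-ko culture.

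Another 3 of these genes were nearly silent in NFKBIE-ko. Tmprss3, a transmembrane protease, measured 6.92 CPM, 0.422 CPM and 49.2 CPM in NFKBIE-wt and at most 0.113 CPM in NFKBIE-ko. Against the NFKBIE-wt mean this was at least 161-fold lower with and 31.3-fold lower without NFKBIE-wt 3. NFKBIE-wt 2 alone lay much nearer to NFKBIE-ko. Me3, the mitochondrial malic enzyme, measured 3.38 CPM, 0.729 CPM and 26.9 CPM against at most 0.0826 CPM. Here too the folds, at least 88.1-fold and 17.5-fold lower, hold for the NFKBIE-wt mean and not for NFKBIE-wt 2. Gpc6, a glypican, measured 9.69 CPM, 0.499 CPM and 27.7 CPM against at most 0.33 CPM. All 3 were highest in NFKBIE-wt 3 and lowest in NFKBIE-wt 2. Epcam, a cell adhesion molecule, followed the same order at 17.5 CPM, 3.11 CPM and 39.6 CPM against 0.825 CPM to 1.44 CPM (log2 fold changes of -4.25 and -3.26).

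Another 5 of the 15 rested on NFKBIE-wt 3. Fos, a subunit of AP-1, measured 969 CPM there, 4.34 CPM and 2.19 CPM in NFKBIE-wt 1 and 2, and 1.84 CPM, 1.42 CPM and 2.06 CPM in NFKBIE-ko, so that its log2 fold change went from -7.54 to -0.87 without that library. Dusp1, a phosphatase of MAP kinases, went from -4.51 to -0.42, Tsc22d3, a glucocorticoid-induced gene, from -3.78 to -0.57, Zfp36, a destabilizer of cytokine mRNA, from -3.33 to -0.57, and Pik3ip1, an inhibitor of PI3 kinase, from -3.36 to -0.42. In the other 5 cultures the levels of each of these genes lay close together, with NFKBIE-ko still the lower group. Of the list of 21 immediate-early genes tested, 18 had a negative fold change with 6 cultures and 19 without NFKBIE-wt 3, but the median went from -0.80 to -0.42, and only Atf3 of 5 remained separated beyond the fold.

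The most uniform gene group was MHC class II, whose α and β chains present peptides to helper T cells, with the chaperones H2-DM and H2-DO, the invariant chain Cd74 and the transactivator Ciita. All 10 of the tested genes were higher in every NFKBIE-ko culture than in every NFKBIE-wt culture, with and without NFKBIE-wt 3, where such separation in this direction was seen in 9.88% and 13.6% of all genes. The log2 fold change was above 1 in 8 of the 10 with 6 cultures and in 3 without NFKBIE-wt 3, and its median was 1.25 and 0.93, beside -0.02 and -0.01 over all genes tested. None passed the adjusted threshold (adjusted p of 0.439 to 0.602 with 6 cultures and of 0.0902 to 0.631 without NFKBIE-wt 3).

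Ciita, the transcriptional coactivator on which class II expression depends, measured 65.5 CPM, 121 CPM and 17.6 CPM in NFKBIE-wt and 197 CPM, 182 CPM and 197 CPM in NFKBIE-ko (log2 fold change 1.50, and 1.05 without NFKBIE-wt 3). Cd74 measured 2149 CPM, 6063 CPM and 1140 CPM against 6931 CPM, 6774 CPM and 6525 CPM (1.11 and 0.72). H2-Aa, an α chain, measured 409 CPM, 999 CPM and 242 CPM against 1344 CPM, 1353 CPM and 1275 CPM (1.27 and 0.91). In each, NFKBIE-wt 2 lay nearest to the NFKBIE-ko cultures, and for Cd74 the gap was small against the difference between NFKBIE-wt 1 and 2.

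The other chains followed the same order of libraries. H2-Ab1 had log2 fold changes of 1.37 and 1.04 with and without NFKBIE-wt 3, and H2-Eb1 of 1.39 and 1.01. Among the chaperones, H2-DMa measured 65.1 CPM, 98.5 CPM and 48.4 CPM in NFKBIE-wt and 163 CPM, 150 CPM and 155 CPM in NFKBIE-ko (1.14 and 0.94), without overlap. H2-DMb1 had 0.80 and 0.59 and its near-identical copy H2-DMb2 1.23 and 0.93, values that are uncertain where reads fit both. H2-Oa had 1.45 and 0.98. H2-Ob was separated only by 60.1 CPM in the lowest NFKBIE-ko culture against 59.9 CPM in NFKBIE-wt 2, so that its log2 fold change was 0.22. Apart from H2-Ob, the lowest class II levels were in NFKBIE-wt 3 and then NFKBIE-wt 1. These cultures had the highest cytotoxic and NK, myeloid and granulocyte lists, but NFKBIE-wt 1 had the lowest T-cell and erythroid lists. The part of host RNA in the class II difference was not tested.

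The MHC class I presentation genes gave a contrast. None of 11 tested genes was separated between the groups, and the median log2 fold change was -0.02 with 6 cultures and -0.10 without NFKBIE-wt 3. H2-K1, a class I heavy chain, measured 1880 CPM, 1390 CPM and 1107 CPM in NFKBIE-wt and 1587 CPM, 1510 CPM and 1625 CPM in NFKBIE-ko, which lay within the range of the former.

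**Figure D3:**
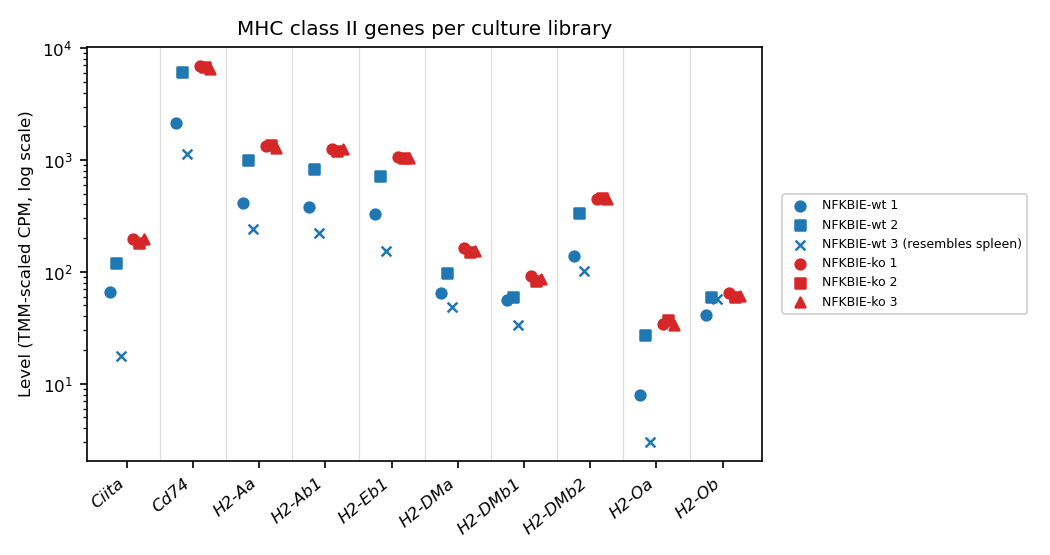
Level of the 10 tested MHC class II genes (TMM-scaled CPM, log axis) in each culture. The NFKBIE-ko cultures lie above all NFKBIE-wt cultures for each gene, NFKBIE-wt 2 is the nearest for most, and for H2-Ob the gap is 59.9 to 60.1 CPM.

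Class II promoters are known for an X box and a Y box, on which the complex that recruits Ciita assembles, and these letters were looked for because the group moved together. In the RefSeq promoter table (GRCm38.p6), 7 of the 10 tested genes had an entry, and H2-Ab1, Ciita and Cd74 had none. The Y box letters TGATTGG stood on either strand within the 250 bases before the start in 6 of the 7 genes (85.7%), against 12.2% of the genes tested in culture and 8.38% of all 27025 genes in the table. Letters AGNAAC followed by TGATTGG after 10 to 40 bases stood in 4 of the 7 (57.1%), against 0.495% and 0.292%. The letters were chosen with these sequences in view, and H2-DMa had no match. The 60 bases around the match are shown for the genes that had one, with the Y box letters and, where present, the AGNAAC letters in capitals.
H2-Aa, chr17:34287862-34287921, reverse strand: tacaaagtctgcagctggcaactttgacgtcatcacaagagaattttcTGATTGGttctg
H2-DMb1, chr17:34153080-34153139, forward strand: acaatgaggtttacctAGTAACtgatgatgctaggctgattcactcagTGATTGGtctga
H2-DMb2, chr17:34145109-34145168, forward strand: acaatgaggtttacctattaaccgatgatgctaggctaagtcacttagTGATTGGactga
H2-Eb1, chr17:34305758-34305817, forward strand: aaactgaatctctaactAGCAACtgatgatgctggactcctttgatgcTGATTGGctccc
H2-Oa, chr17:34092286-34092345, forward strand: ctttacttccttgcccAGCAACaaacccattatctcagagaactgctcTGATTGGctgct
H2-Ob, chr17:34238798-34238857, forward strand: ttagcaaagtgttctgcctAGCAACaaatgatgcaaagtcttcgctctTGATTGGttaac
A match to the κB consensus within the same window, on either strand, was found, for the genes separated with 6 cultures, in 10.6% of the 179 higher ones with an entry, in 6.29% of the 143 lower ones and in 5.45% of the 8695 genes tested.

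NF-κB's own subunits differed little. Of 11 genes for subunits and IκB inhibitors, only Nfkb2, which encodes p100, was higher in every NFKBIE-ko culture with 6 libraries, at 261 CPM, 349 CPM and 112 CPM in NFKBIE-wt and 407 CPM, 402 CPM and 396 CPM in NFKBIE-ko (log2 fold change 0.74, and 0.40 without NFKBIE-wt 3). Rela, at 64.6 CPM, 65.6 CPM and 83.1 CPM against 64.9 CPM, 64.1 CPM and 66.3 CPM, and Rel overlapped between the groups. Nfkbiz, an atypical IκB, was lower in every NFKBIE-ko culture, with -1.02 and -0.34 with and without NFKBIE-wt 3, and was the only member of the list separated beyond the fold with 6 cultures, as Nfkbie was without that library. Of the 24 genes of the canonical and non-canonical pathway, none was separated beyond the fold with 6 cultures, and without NFKBIE-wt 3 only Tlr4 was, on the lower side. The medians were -0.003 and 0.02.

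Among 37 tested NF-κB target genes, 4 were separated on the higher side beyond the fold and none on the lower side, with 6 cultures, and the same held of 38 tested without NFKBIE-wt 3. Over all genes, 2.21% and 2.13% were so separated on the higher side and 1.59% and 1.28% on the lower side, which are the shares to set beside the lists below as well. The 4 were Tnf, Lta, Ltb and Fas. The median log2 fold change over the list was 0.17 and 0.13, beside -0.02 and -0.01 over all genes. Many classical targets did not separate, such as Cd83, Icam1, Irf1, Ccl22 and Junb, whereas Birc3, Traf1 and Cd40 were separated at log2 fold changes below 1. Such targets also respond to other signals.

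Tnf, Lta and Ltb, which encode TNF and the lymphotoxin chains, lie next to each other on chromosome 17 between 35413382 and 35424327. Ltb measured 150 CPM, 239 CPM and 58.8 CPM in NFKBIE-wt and 432 CPM, 427 CPM and 444 CPM in NFKBIE-ko (log2 fold change 1.54, and 1.16 without NFKBIE-wt 3). Lta measured 1.37 CPM, 1.31 CPM and 0.449 CPM against 4.84 CPM, 5.08 CPM and 4.62 CPM (2.22 and 1.86), and Tnf 2.57 CPM, 1.15 CPM and 1.76 CPM against 5.03 CPM, 6.7 CPM and 6.61 CPM (1.74 and 1.72). The lowest NFKBIE-ko culture was well above the highest NFKBIE-wt culture in all 3. Fas, the death receptor, measured 4.02 CPM, 0.0384 CPM and 1.05 CPM against 9.23 CPM, 8.09 CPM and 9.91 CPM (2.42 and 2.18). Adjusted p-values of the 4 lay between 0.412 and 0.529 with 6 cultures and between 0.0902 and 0.604 without NFKBIE-wt 3.

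Of 25 tested chemokines, cytokines and their receptors, 7 were separated on the higher side beyond the fold and 1 on the lower side, and 5 and 1 without NFKBIE-wt 3. Besides Tnf, Lta and Ltb, the higher ones were Cxcr3 and Gpr183, chemotactic receptors, and Il9r and Il21r, receptors of T-cell cytokines. Il9r measured 162 CPM, 353 CPM and 30.5 CPM in NFKBIE-wt and 474 CPM, 480 CPM and 439 CPM in NFKBIE-ko (log2 fold change 1.35, and 0.85 without NFKBIE-wt 3). Gpr183, which guides B cells by oxysterols, measured 1.69 CPM, 2.53 CPM and 1.46 CPM against 5.63 CPM, 7.47 CPM and 4.29 CPM (1.61 and 1.46). The lower one was Il2ra, the α chain of the interleukin 2 receptor, at 41.2 CPM, 4.26 CPM and 27.5 CPM against 1.76 CPM, 1.39 CPM and 2.44 CPM (-3.71 and -3.60). Cxcr3 was low in all cultures, at most 2.54 CPM. Of the 14 genes that the study names, 10 were tested, and Tnf was the only one separated on the higher side beyond the fold and Tigit the only one on the lower side, joined by Pdcd1 without NFKBIE-wt 3. Because the study chose them on these samples, they are no independent evidence.

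Among 17 checkpoint and costimulatory genes, Icosl was the only one separated on the higher side. Pdcd1, which encodes PD-1, measured 15.9 CPM, 15.4 CPM and 6.25 CPM in NFKBIE-wt and 5.82 CPM, 4.81 CPM and 6.44 CPM in NFKBIE-ko, so that it was separated only without NFKBIE-wt 3 (log2 fold change -1.45, and -1.14 with 6 cultures). Tigit was at 1.37 CPM, 0.653 CPM and 1.39 CPM against 0.225 CPM, 0.116 CPM and 0.165 CPM (-2.72 and -2.54), that is 17 to 37 counts against 3 to 6. Both are receptors of inhibitory signals on T cells, and at these levels the counts of Tigit are few.

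In B-cell receptor signaling, 1 of 22 genes was separated in each direction beyond the fold. Cd22, an inhibitory coreceptor of B cells, measured 89.3 CPM, 75.2 CPM and 31.5 CPM in NFKBIE-wt and 170 CPM, 179 CPM and 169 CPM in NFKBIE-ko (a log2 difference of 1.40 with an adjusted p of 0.451; 1.08 and 0.0587 without NFKBIE-wt 3). Fyn, a kinase of the Src family, measured 6.23 CPM, 3.88 CPM and 5.13 CPM against 0.938 CPM, 1.23 CPM and 1.11 CPM (-2.21 and -2.19). NFKBIE-wt 3 did not decide either separation. Of 18 transcription factors of the B lineage, only Bach2, a repressor of plasma cell differentiation, was separated beyond the fold. It measured 32 CPM, 15.9 CPM and 33.7 CPM against 11.7 CPM, 12.9 CPM and 10.8 CPM (-1.21 and -1.01). All 7 tested genes of the plasma cell list had a negative fold change, with and without NFKBIE-wt 3. Their medians were -1.125 and -0.975, and none was separated beyond the fold. Cd6, a scavenger receptor of T cells and B-1 cells, was higher, at 2.29 CPM, 7.64 CPM and 4.57 CPM against 16.9 CPM, 11.8 CPM and 13.3 CPM (1.53 and 1.50). It was the only 1 of 9 tested genes of the T-cell list separated on the higher side beyond the fold. On the lower side 3 were, with and without NFKBIE-wt 3, and the medians of the list were -0.57 and -0.06.

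For stress and interferon genes, the sign of the fold change can be set beside that of all genes, which was negative in 6248 of 11722 with 6 cultures and in 6149 of 11844 without NFKBIE-wt 3. Of 15 genes of the integrated stress response, 14 had a negative fold change with and without NFKBIE-wt 3, with medians of -0.31 and -0.32. Ddit3, the transcription factor CHOP, measured 14.5 CPM, 11.8 CPM and 35.4 CPM in NFKBIE-wt and 6.72 CPM, 7.16 CPM and 6.11 CPM in NFKBIE-ko (log2 fold change -1.64, and -0.98 without NFKBIE-wt 3). Trib3 and Chac1, its targets, were at 5.51 CPM, 9.14 CPM and 2.06 CPM against 1.78 CPM to 2.62 CPM, and at 5.91 CPM, 5.68 CPM and 1.24 CPM against 0.991 CPM to 2 CPM, and were separated only without NFKBIE-wt 3. Of the 25 interferon response genes, 19 and 22 had a negative fold change, with medians of -0.39 and -0.56, and many were highest in NFKBIE-wt 1. The only separated member beyond the fold was Mx1, at under 1 CPM in all cultures and only with 6 of them.

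No metabolic gene of the 2 lists was separated beyond the fold. Over all genes, 5474 of 11722 had a positive fold change with 6 cultures and 5695 of 11844 without NFKBIE-wt 3, and 9.88% and 13.6% were separated on the higher side at any fold. Of 23 genes of glycolysis and hypoxia, 22 had a positive fold change and 8 were separated on the higher side, and 18 and 8 without NFKBIE-wt 3 (with 1 separated on the lower side), with medians of 0.48 and 0.30. Aldoa, a glycolytic enzyme, measured 855 CPM, 1062 CPM and 410 CPM in NFKBIE-wt and 1325 CPM, 1446 CPM and 1098 CPM in NFKBIE-ko. Of 23 genes of cholesterol and fatty acid synthesis, 22 and 21 were positive, but the median went from 0.49 to 0.15 as NFKBIE-wt 3 was left out. The cell cycle list of 33 genes had medians of 0.13 and -0.01 and none separated beyond the fold.

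The remaining gene lists, marker lists aside, showed little. Of 14 BCL2 family genes, the proapoptotic Bmf was separated on the lower side with 6 cultures, at 7.2 CPM, 3.88 CPM and 76.8 CPM against 2.74 CPM, 2.58 CPM and 3.67 CPM, with medians of -0.05 and -0.16 for the list, and without NFKBIE-wt 3 only Bik, at under 1 CPM in all cultures, was separated beyond the fold. Of 18 adhesion and migration genes, Cd44, the hyaluronan receptor, was separated at 290 CPM, 181 CPM and 408 CPM against 142 CPM, 146 CPM and 153 CPM (log2 fold change -1.0, and -0.67 without NFKBIE-wt 3), with medians of -0.05 and -0.11. The clonal immunoglobulin genes had medians of -0.46 and -0.53, with none of 8 separated beyond the fold.

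**Figure D4:**
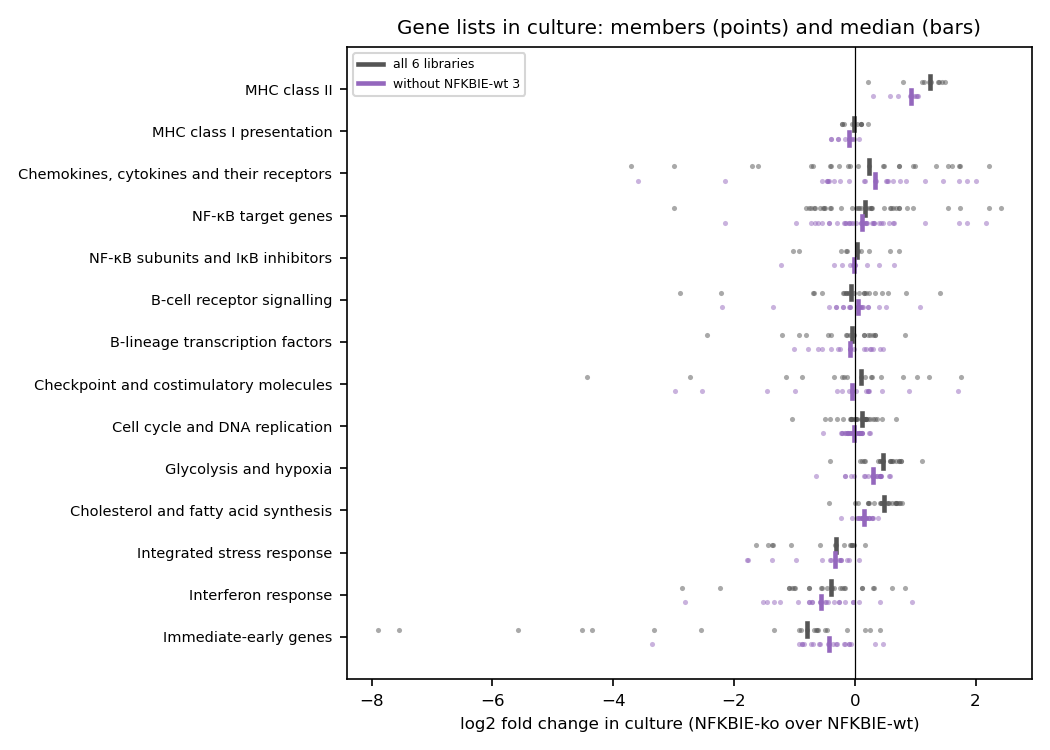
Log2 fold change (NFKBIE-ko over NFKBIE-wt) of the tested members of 14 gene lists as points and their median as bars, with 6 cultures (grey) and without NFKBIE-wt 3 (purple). The MHC class II members lie above 0 in both, and the median of the immediate-early genes goes from -0.80 to -0.42 as NFKBIE-wt 3 is left out.

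The same fold changes were looked up in libraries that the culture comparison did not use. Of the 259 genes separated on the higher side in culture, 213 were tested in the spleen without NFKBIE-wt spleen 4, and 96 of these (45.1%) were called higher at the adjusted threshold there, beside 3.05% of all genes tested, and none lower. In the PC 144 of 220 (65.5%) were called higher, beside 9.96%, and none lower. Of the 186 lower genes, 63 of 182 (34.6%) were called lower in the spleen, beside 3.34%, and 45 of 177 (25.4%) in the PC, beside 3.49%, while 2 and 8 were called higher. Without NFKBIE-wt 3 the same shares were 42.9% and 66.2% on the higher side and 36.9% and 25.6% on the lower side, with 1 of the higher genes called lower in each compartment and 11.6% of the lower genes called higher in the PC. These libraries derive from the same lines of cells, so that they are not independent of how those were propagated.

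Ltb was called in both compartments, at 122 to 250 CPM against 52.2 to 81.4 CPM in the spleen and at 167 to 170 CPM against 46.1 to 63.5 CPM in the PC, without overlap in either. Ciita was higher in the spleen (log2 fold change 1.50, adjusted p of 0.00312) and in the PC (1.31, adjusted p of 0.000171). Cd74 rose by 0.85 (adjusted p of 0.0237) and by 1.21 (adjusted p of 3.88e-06), and H2-Aa, H2-Ab1, H2-Eb1, H2-DMa, H2-DMb2 and H2-Oa passed the adjusted p in the PC but not in the spleen, whereas H2-DMb1 passed it in neither (0.20 and 0.02). H2-Ob went the other way, falling by 1.2 on the log2 scale in the spleen and by 0.48 in the PC, and its effect in culture minus that in the spleen was 1.31 in all 22 libraries (adjusted p of 0.0482) and 1.49 in 20 (adjusted p of 0.0233). The summed T-cell list was higher in NFKBIE-ko in vivo, at 588 to 694 CPM against 375 to 438 CPM in the spleen and at 547 to 642 CPM against 380 to 455 CPM in the PC, and its part in the values there was not tested.

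Some genes differed between culture and in vivo by the test of the difference. Fyn was lower in culture but higher in the spleen (1.0, adjusted p of 0.0324), with a difference of -3.20 in 20 libraries (adjusted p of 0.00164) and of -3.33 in all 22 (adjusted p of 0.000688). Tigit and Pdcd1 were likewise lower in culture and had positive fold changes in vivo, with differences to the spleen of -3.98 (adjusted p of 0.0216) and -2.38 (adjusted p of 0.0263) in 20 libraries. Both are expressed by T cells, whose summed markers were higher in NFKBIE-ko in vivo, and the part of these cells in the differences was not tested. Pdcd1 was also present in cultures without detectable RNA of the T-cell receptor β chain. It was at 15.4 CPM in NFKBIE-wt 2 and at 4.81 to 6.44 CPM in NFKBIE-ko. Klhl13 was nearly silent in NFKBIE-ko in culture and in the spleen (-5.69) but higher in the PC (2.14), a difference of -8.31 (adjusted p of 0.000743). In the fit of 20 libraries the effect in culture exceeded that in the spleen for 33 genes and fell short of it for 64 (0.24% and 0.465% of 13760), and the same numbers against the PC were 68 and 411 (0.494% and 2.99%).

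**Figure D5:**
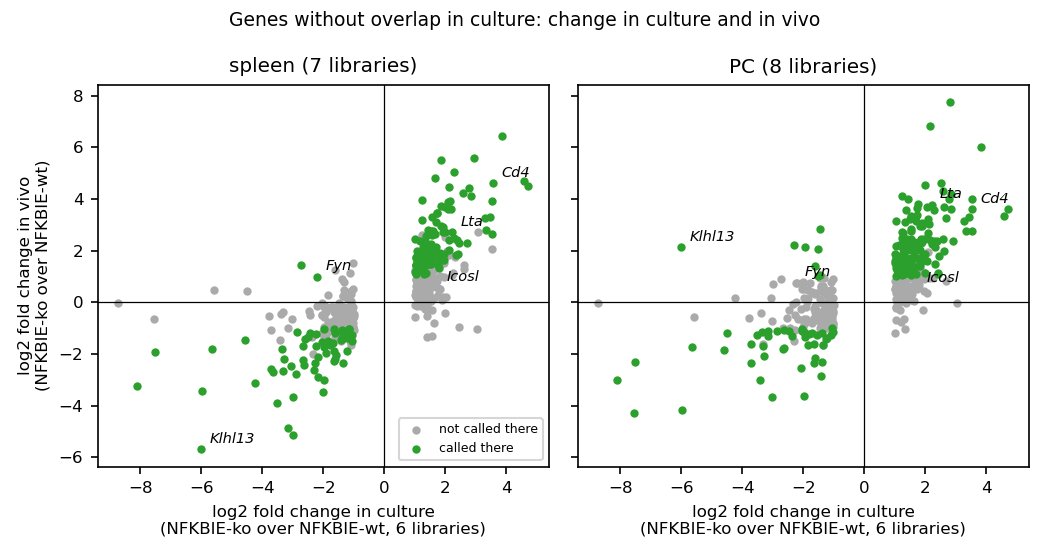
Log2 fold change in culture (6 libraries, horizontal axis) against that in the spleen (7 libraries, left) or the PC (8 libraries, right) for genes separated in culture with a log2 fold change beyond 1, green where called in that compartment. Of the genes higher in culture, 96 and 144 were called higher there and none lower, whereas Klhl13 and Fyn have opposite signs in culture and in at least 1 compartment.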

How the data were processed

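The authors quantified paired-end reads of mRNA libraries against transcripts with Salmon (version 1.8 per the submitters' processing notes, which also name GRCm39) and deposited 1 table of estimated counts (expected counts) per transcript, without normalization, for 22 libraries. Of 62492 transcripts, each above 0 in at least 5 libraries, 62147 matched GENCODE M39 (17023 genes); the unmatched ones held 0.619% of the counts. Values were rounded (69.5% were not whole) and summed per gene. Genotype and compartment were taken from the titles, since the descriptions of NFKBIE-ko samples open with the NFKBIE-wt name and all samples give blood as tissue.

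The 6 cultures were fitted with edgeR 4.0.16 (filterByExpr, TMM, robust quasi-likelihood, Benjamini-Hochberg adjustment) in R 4.3.3, again without NFKBIE-wt 3, and the spleen and PC libraries separately. Differences between compartments were tested in fits of all 22 and of 20 libraries. The sources do not say which mouse gave which culture, so that p-values measure the spread between these samples. Thresholds on the adjusted p and the fold follow the study. DESeq2 1.42.0 and other settings served as alternatives. Tests were checked on simulated data with the same spread in both groups, whereas the NFKBIE-wt cultures differed more from each other than the NFKBIE-ko cultures. The check does not show how the tests behave under such unequal spread.

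The 19 gene lists, 8 marker lists and comparisons were chosen with earlier results of these data known. Genes were named by a rule: Nfkbie, every called gene, per direction the 15 protein-coding genes of largest fold change that had at least 5 CPM in the higher group, an unadjusted p below 0.05 and full separation, and of each list the members separated beyond the fold and up to 4 more with the highest CPM. Some further list members and marker genes, such as Tlr4, were picked with their values known, and some genes that meet the rule are not reported here. Where a group lay at or below 3 counts per library, the fold is a lower bound and covers counting error only. It sets the mean of the other group against that floor, so that a single culture can differ by less. The cr-RNA was searched in GRCm39 and promoter letters in the RefSeq table with Python 3.11.15, and figures drawn with matplotlib 3.10.9. The total estimated counts of 24041882 to 26581304 in the cultures set the precision.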

Additional observations from a re-analysis of the deposited data

Results flagged for a closer look

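Effects that differed between culture and a compartment in vivo are given as the log2 fold change in culture minus that in vivo, from edgeR's interaction test with Benjamini-Hochberg adjustment. Against the spleen in all 22 libraries these were H2-Ob (1.31, adjusted p of 0.0482), Fyn (-3.33, adjusted p of 0.000688) and Tigit (-4.40, adjusted p of 0.0205). In 20 libraries, without NFKBIE-wt in vitro 3 and NFKBIE-wt spleen 4, they were Nfkbie (-1.67), Prss23 (-2.17), H2-Ob (1.49), Fyn (-3.20), Pdcd1 (-2.38), Tigit (-3.98) and Il9r (-1.72), with adjusted p-values from 0.00164 to 0.0263.

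Against the PC in all 22 libraries the differences were Zc3h12d (-0.93), Klhl13 (-8.14), Prss23 (-3.93), Epcam (-4.42), Fyn (-2.98), Pdcd1 (-2.61), Tigit (-3.64) and Cd44 (-0.91), with adjusted p-values from 0.000507 to 0.0411. In 20 libraries they were Gimap7 (-1.0), Me3 (-2.86), Klhl13 (-8.31), Prss23 (-2.25), Epcam (-3.44), Lta (-1.92), Fyn (-2.96), Pdcd1 (-2.92) and Tigit (-3.46), with adjusted p-values from 0.000743 to 0.0458.

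Of 32 groups of 4 libraries and marker lists, 2 held a library that stood far from the others: the summed cytotoxic and NK markers in NFKBIE-ko spleen 3 (145.0 CPM) and the summed plasma cell markers in NFKBIE-ko spleen 2 (976.5 CPM). Chance flags about 1 in 20 such groups.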

How the results depend on the processing

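Of 1204 values of the 68 named genes under the alternatives, 0 reversed, 990 kept their direction and side of the threshold, 168 came to pass it and 46 no longer passed it. Of 182 list medians, 28 changed sign. With 6 cultures (5 higher and 0 lower by the adjusted test, 259 and 186 by separation) the numbers were 69 and 86, and 411 and 328, with DESeq2; 0 higher, and 858 and 740, with counts per transcript; 59 and 130 by the adjusted test with all 22 samples in 1 fit; 410 and 323 by separation without a filter; 7 higher and 2 lower by the adjusted test without NFKBIE-wt 3, 16 and 19 in 1 fit of 21 samples, 89 and 54, and 433 and 421, with DESeq2 on these, and 60 and 73 in 1 fit of 20 samples. RLE size factors gave 4 higher and the stricter filter 4. Leaving out 1 culture in turn gave 0 to 167 higher and 0 to 223 lower by the adjusted test and 252 to 636 higher and 152 to 742 lower by separation, the highest each time without NFKBIE-wt 2; the lowest higher number, 0, came without NFKBIE-wt 1 and without any 1 NFKBIE-ko culture.

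Without NFKBIE-wt 3 (7 higher and 2 lower, 252 and 152), DESeq2 gave 89 and 54, and 433 and 421; 1 fit of 21 samples 16 and 19, with 244 lower by separation; 1 fit of 20 samples 60 and 73, with 241 lower; and the stricter filter 1 lower, with 167 and 74 by separation. Leaving out 1 more culture gave 0 to 441 higher and 0 to 518 lower by the adjusted test and 241 to 696 higher and 169 to 786 lower by separation, with a lone NFKBIE-wt culture assumed to vary like the others (205 and 93 without NFKBIE-wt 1, 441 and 518 without NFKBIE-wt 2, and 0 to 2 and 0 to 1 without an NFKBIE-ko culture). In the spleen, 172 higher and 195 lower became 380 and 416 without NFKBIE-wt spleen 4. Differences between culture and spleen were 18 and 30 with 22 samples and 33 and 64 with 20, and between culture and PC 34 and 401 against 68 and 411.

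The replicate numbers did not pair the cultures (correlation of deviations -0.0243, 0.201 and 0.0437 for equal numbers), and not every culture correlated best with its own number. With the replicate number as a block, 0 genes were higher and 0 lower by the adjusted test, and 302 and 158 were separated. The block fit without NFKBIE-wt 3 also left out NFKBIE-ko 3, which had no partner of its number. It gave 0 and 0 by the adjusted test, and 319 and 172 by separation.

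The biological coefficient of variation was 0.284 with 6 cultures and 0.197 without NFKBIE-wt 3. A gene that missed the adjusted threshold is not shown to be unchanged. Genes with few counts, such as Tigit, Hgfac and Cxcr3, carry large counting error. The cause of the changes above was not tested.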

Other observations

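Fermt2, an integrin adaptor, and Grb10, an adaptor of growth factor receptors, were noticed after their values were seen. Fermt2 measured 75.8 CPM, 0 CPM and 48.3 CPM in NFKBIE-wt cultures 1, 2 and 3 and at most 0.0385 CPM in NFKBIE-ko, and Grb10 measured 26 CPM, 0 CPM and 6.29 CPM and 0 CPM. NFKBIE-wt 2 thus had the level of the NFKBIE-ko cultures. In vivo both were lower in NFKBIE-ko, by log2 fold changes of -8.40 and -3.90 in the PC and of -9.33 and -7.20 in the spleen.

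NFKBIE-wt 1 stood apart from NFKBIE-wt 2 in interferon-inducible genes. Igtp, an interferon-induced GTPase, was at 201 CPM in NFKBIE-wt 1 and at 26.2 to 47.5 CPM in the other 5 cultures, and Gbp4, of the guanylate-binding proteins, at 51.5 CPM and at 5.37 to 11.6 CPM. The class II transactivator Ciita was not highest there, at 65.5 CPM.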
